A study of Homo sapiens with 12 samples.

Results

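The 10 genes described here encode the brakes and the accelerators of the G1 phase of the cell cycle: the CIP/KIP inhibitors CDKN1A, CDKN1B and CDKN1C, the INK4 inhibitors CDKN2A, CDKN2B and CDKN2C, the D cyclins CCND1, CCND2 and CCND3, and the transcription factor MYC. They were taken by symbol from a table of 35587 gene symbols and read in all 12 libraries. The cells were TeloHAEC, human aortic endothelial cells immortalised with telomerase, grown for 24 hours on plates coated with DLL4 or with IgG at 2.5 mg/mL. DLL4 is a ligand of Notch receptors, and IgG is the protein control for the coating. The lines were TKO, made with Cas9 and a guide against TSPAN14 (a tetraspanin membrane protein that associates with ADAM10, a protease that cleaves Notch), NKO, made with Cas9 and a guide against NOTCH1 (a Notch receptor), and NT, the control, which the labels give as wild type. Each line was represented by 2 libraries on DLL4 and 2 on IgG, with polyadenylated RNA from 140 ng of total RNA, and each genotype by 1 line, so that a change made by the guide cannot be told apart from any other change the line carries. The labels name biological replicates without saying that cultures were separate, so p-values measure the spread between these libraries, which may be technical.

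A cell leaves G1 when a D cyclin binds CDK4 or CDK6 and the complex phosphorylates the retinoblastoma protein RB, which frees E2F transcription factors to switch on the genes of DNA replication. INK4 proteins bind CDK4 and CDK6 and keep D cyclins off them. CIP/KIP proteins bind cyclin-CDK complexes and inhibit CDK2 above all, while MYC drives ribosome production and growth. In endothelium, Notch signalling is known for restraining the cell cycle as cells take on an arterial character.

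The stretches upstream of CDKN2B and CDKN1A are shown because these were the members that rose most on DLL4 in NT cells. They come from RefSeq promoter windows of GRCh38.p14 and stop at the base before the first CDKN2B or CDKN1A transcript start of GENCODE 29 in the window. The CDKN2B stretch is chr9:22009364-22009555 on the minus strand, 192 bases, inside introns of the antisense gene CDKN2B-AS1. The CDKN1A stretch is chr6:36678464-36678657 on the plus strand, 194 bases, inside an intron of longer CDKN1A transcripts and partly over an exon of the antisense gene DINOL. Capitals mark GC boxes (GGGCGG on either strand).
CDKN2B: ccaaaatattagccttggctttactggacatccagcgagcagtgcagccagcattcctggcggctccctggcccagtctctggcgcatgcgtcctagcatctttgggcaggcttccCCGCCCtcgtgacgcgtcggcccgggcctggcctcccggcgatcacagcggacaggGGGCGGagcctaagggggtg
CDKN1A: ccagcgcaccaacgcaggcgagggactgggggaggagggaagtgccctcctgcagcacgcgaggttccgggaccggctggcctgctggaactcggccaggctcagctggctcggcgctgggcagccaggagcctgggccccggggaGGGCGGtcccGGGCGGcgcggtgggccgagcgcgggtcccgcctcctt
Each stretch held 2 GC boxes. The letters GTGGGAA, searched on both strands as a core of the motif of RBPJ, the DNA-binding partner of Notch, were in neither stretch. They were also in none of the 11 RefSeq windows searched for 6 members (CDKN1A, CDKN1B, CDKN2A, CDKN2B, CDKN2C and CCND3). No window was found for CCND1, CCND2 and CDKN1C, and MYC was left out of this search. The E-box CACGTG, a motif that MYC and MAX bind, was in 2 of the 3 CDKN2C windows. Of the 35116 windows of 300 bases in the RefSeq table, 45.0% held a GC box, 6.25% held GTGGGAA and 7.26% held CACGTG.

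Expression is given in TPM, transcript abundances per length scaled to a common total, as deposited. Change was tested with limma on log2(TPM + 1), with p-values adjusted by Benjamini-Hochberg over the 13299 genes that reached 1 TPM in at least 2 libraries. A gene is said to have risen or fallen where the adjusted p was below 0.05. 7 of the 10 members were tested, and these 7 were at or above 1 TPM in every library. TSPAN14 averaged 111 ± 2.98 TPM in TKO cells on DLL4 and 179 ± 9.64 TPM in NT cells on DLL4 (SD, n = 2 each), and NOTCH1 averaged 18.0 ± 2.09 TPM in NKO cells on DLL4 and 28.1 ± 4.78 TPM in NT cells on DLL4. TSPAN14 was lower in TKO than in NT cells on both coatings (limma, adjusted p = 0.00039 on DLL4 and 0.0015 on IgG), while NOTCH1 was lower in NKO than in NT cells on DLL4 (adjusted p = 0.023) and not on IgG (log2 change of -0.10, adjusted p = 0.72). On IgG NOTCH1 averaged 17.4 TPM in NKO and 18.7 TPM in NT cells. NOTCH1 itself rose on DLL4 in NT cells (log2 change of 0.55, limma, adjusted p = 0.041) and was not called in NKO cells (0.05, adjusted p = 0.98). The lower NOTCH1 in NKO cells was thus seen only on the coating that raised it in NT cells. Transcript levels do not measure what a guide did to the protein. All 15 endothelial markers examined were at or above 1 TPM in every library. Of 8 smooth muscle and pericyte markers 3, MYH11, DES and LMOD1, stayed below 1 TPM throughout, and the summed TPM of the list was 125 to 133 in TKO, 131 to 141 in NKO and 277 to 320 in NT cells on DLL4, and 174 to 194 in TKO, 152 to 165 in NKO and 237 to 260 in NT cells on IgG. RGS5, a pericyte marker, ranged from 2.55 to 221 TPM within that list, SMTN from 69.0 to 168 TPM and ACTA2 from 9.78 to 29.9 TPM. Of 6 epithelial markers EPCAM, CDH1 and CLDN4 stayed below 1 TPM, and the summed TPM of the list, nearly all from keratins, was 913 to 1009 in TKO, 906 to 1345 in NKO and 857 to 864 in NT cells on DLL4, and 1086 to 1305 in TKO, 941 to 1276 in NKO and 724 to 838 in NT cells on IgG. Of 5 leukocyte markers PTPRC, CD3E and LYZ stayed below 1 TPM, while CD14 ranged from 0.0423 to 9.65 TPM and CD68 from 27.3 to 64.3 TPM. The leukocyte sum, mostly CD68, was 55.0 to 68.1 in TKO, 29.2 to 40.1 in NKO and 42.9 to 53.7 in NT cells over both coatings. Of 7 fibroblast markers 4 stayed below 1 TPM and FAP ranged from 2.73 to 8.04 TPM, with sums over the list of 5.79 to 9.75. The first 3 of these sums moved between lines, together with several members below. The smooth muscle sum also moved between coatings, as did the epithelial sum in TKO cells (lower on DLL4) and NT cells (higher on DLL4). The part of these sums in the results for the members was not tested.

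In NT cells on DLL4, against NT cells on IgG, 4 members rose (CDKN1A, CDKN1B, CDKN2B and CCND3) and 2 fell (CCND1 and MYC), 6 of the 7 tested, where 16.0% of all genes tested changed. In TKO cells CDKN1A and CCND3 rose and CCND1 fell on DLL4, 3 of 7, where 6.51% of all genes changed. In NKO cells limma called 0 of 7, where 0.782% of all genes were called, although 6 of the 7 had an unadjusted p below 0.05. The 2 libraries on each coating did not overlap for 50.2% of all genes tested in TKO, 34.0% in NKO and 58.6% in NT cells, so a lack of overlap is common here. Since these are bulk RNA samples, a change in the share of cells in a phase of the cycle and a change in RNA per cell cannot be told apart.

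**Figure D1:**
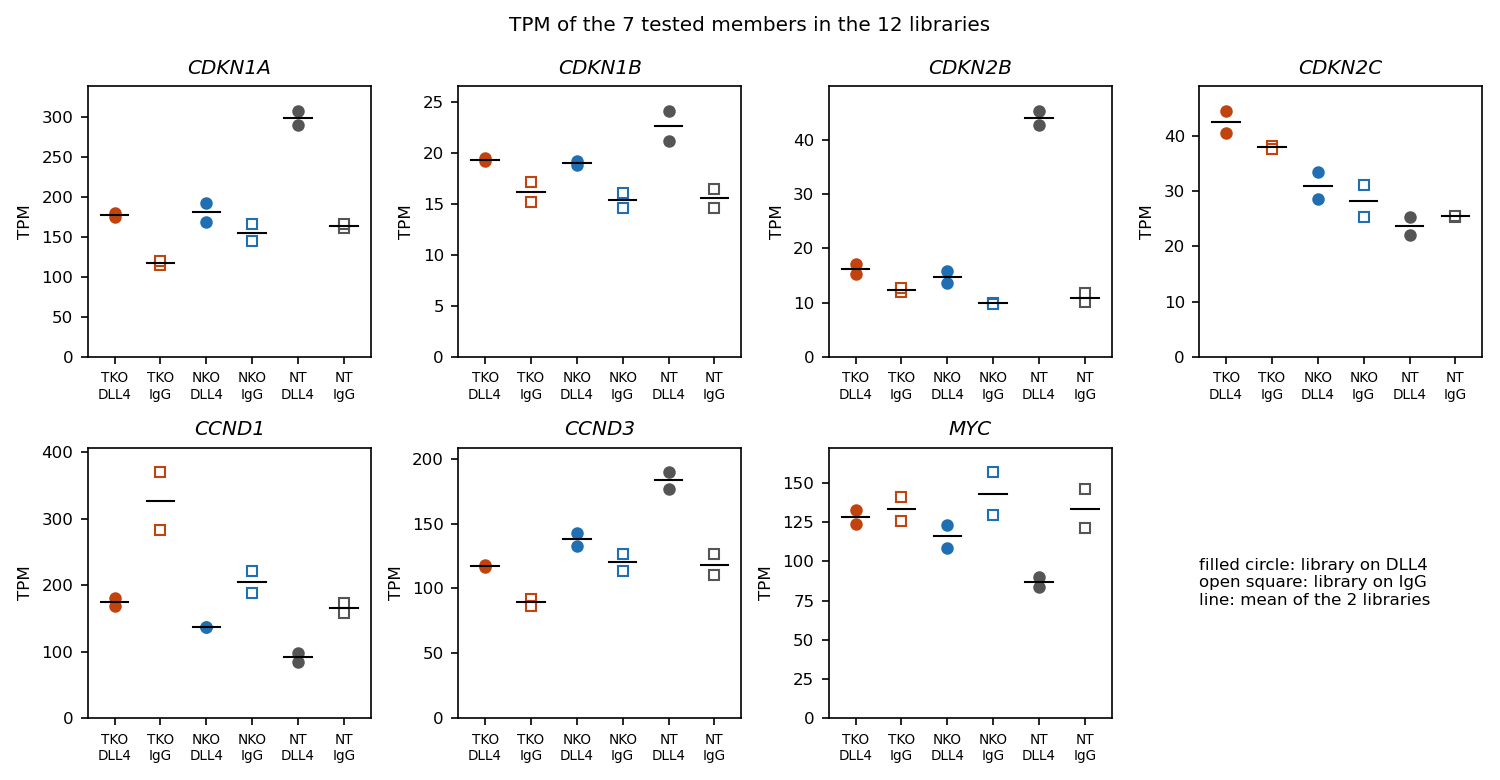
TPM of the 7 tested members in each of the 12 libraries (points), with the mean of the 2 libraries of a group as a line; filled circles are DLL4 and open squares IgG. The NT libraries on DLL4 are the highest of all for CDKN1A, CDKN1B, CDKN2B and CCND3 and the lowest of all for CCND1 and MYC.

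CDKN1A encodes p21, a CIP/KIP inhibitor, and was the most abundant inhibitor here. In TKO cells it had 175 and 180.4 TPM on DLL4, against 115 and 119.8 TPM on IgG. In NKO cells it had 169 and 193 TPM on DLL4, against 145 and 167 TPM on IgG. In NT cells it had 308 and 289.8 TPM on DLL4, against 161 and 166 TPM on IgG. Every DLL4 library was above the IgG libraries of its own line, and the NT libraries on DLL4 stood well above the other 10. The log2 change on DLL4 was 0.59 ± 0.09 in TKO cells (SE, limma, adjusted p = 0.0024), 0.22 ± 0.09 in NKO cells (adjusted p = 0.46) and 0.86 ± 0.09 in NT cells (adjusted p = 0.00011). TKO cells were also lower than NT cells on IgG, by a log2 change of -0.48 (adjusted p = 0.0021).

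The DLL4 response of CDKN1A was smaller in NKO than in NT cells by -0.65 ± 0.12 on the log2 scale (limma, adjusted p = 0.043). Between TKO and NT cells the responses differed by -0.27, with a 95% interval of -0.54 to 0.00 and an adjusted p of 0.32. The NKO difference missed the threshold when any one of 10 libraries was left out: NT IgG 2 (adjusted p = 0.14) or 3 (0.13), TKO IgG 2 or 3 (0.052 each), NKO IgG 2 (0.09), NT DLL4 2 (0.18) or 3 (0.12), TKO DLL4 2 or 3 (0.081 each) and NKO DLL4 1 (0.16), with changes between -0.54 and -0.69.

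CDKN1B encodes p27, a CIP/KIP inhibitor regulated largely through protein stability. It had 19.5 and 19.2 TPM in TKO cells on DLL4, against 15.1 and 17.2 TPM in TKO cells on IgG. It had 18.8 and 19.2 TPM in NKO cells on DLL4, against 16.1 and 14.6 TPM in NKO cells on IgG. It had 24.1 and 21.1 TPM in NT cells on DLL4, against 16.5 and 14.6 TPM in NT cells on IgG. The coatings did not overlap in any line, and the gap was widest in NT cells. The change was 0.25 in TKO (adjusted p = 0.26), 0.29 in NKO (0.42) and 0.51 in NT cells (0.011). The NT call was lost without NT IgG 3 (log2 change 0.43, adjusted p = 0.094) or NT DLL4 2 (0.42, adjusted p = 0.092). On IgG the 3 lines overlapped, and none of the comparisons between lines called CDKN1B with the values as deposited. After quantile normalisation it was lower on DLL4 in TKO than in NT cells (-0.28, limma, adjusted p = 0.027) and in NKO than in NT cells (-0.30, adjusted p = 0.028), the second also with median-of-ratios rescaling (-0.31, adjusted p = 0.033).

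CDKN1C encodes p57, the third CIP/KIP inhibitor, which is imprinted at 11p15. It was at most 0.271 TPM in any library and was not tested. Its levels were 0.0979 and 0.118 TPM in TKO, 0.0473 and 0.0557 TPM in NKO and 0.131 and 0.121 TPM in NT cells on DLL4, and 1 NT library on IgG listed it at 0. How many reads stand behind such values is not known, since TPM keep no read numbers. Of all tested protein-coding genes of chromosome 11, 68.3% were higher and 4.45% lower in TKO than in NT cells on DLL4. On IgG 68.9% were higher and 3.44% lower. Of 6 tested neighbours of CDKN1C at 11p15, 4 were higher and 1 lower in TKO than in NT cells on each coating. The 1 that was lower was IGF2, an imprinted growth factor gene, at -3.30 on DLL4 and -3.67 on IgG. Against NT cells IGF2 was at -3.24 in NKO cells on DLL4.

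CDKN2B encodes p15, an INK4 inhibitor of CDK4 and CDK6 known as a target of TGF-beta signalling. It had 17.1 and 15.3 TPM in TKO cells on DLL4, against 11.9 and 12.7 TPM in TKO cells on IgG. It had 13.5 and 15.8 TPM in NKO cells on DLL4, against 9.99 and 9.79 TPM in NKO cells on IgG. It had 45.4 and 42.7 TPM in NT cells on DLL4, against 10.03 and 11.8 TPM in NT cells on IgG. The 6 IgG libraries lay close together, and the NT libraries on DLL4 stood far above all others. In NT cells the mean TPM was 4.03-fold higher on DLL4, a log2 change of 1.92 ± 0.12 (SE, limma, adjusted p = 3.1e-06). The change was 0.37 ± 0.12 in TKO cells (adjusted p = 0.10) and 0.52 ± 0.12 in NKO cells (adjusted p = 0.089).

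The responses of CDKN2B differed between the lines. The TKO response was below the NT response by -1.55 ± 0.17 (limma, adjusted p = 0.0075) and the NKO response was below it by -1.40 ± 0.17 (adjusted p = 0.0028). The TKO and NKO responses differed by -0.15, with a 95% interval of -0.52 to 0.21. CDKN2B and CDKN1A were the only members called for a difference of responses: 1 of 7 for TKO minus NT, where 0.526% of all genes were called, 2 of 7 for NKO minus NT, where 0.887% were called, and by limma 0 of 7 for TKO minus NKO, where 0.150% were called and 1 member had an unadjusted p below 0.05. The TKO and NKO differences share the NT libraries. Both held at every alternative setting, with an adjusted p of at most 0.049 for TKO and 0.026 for NKO.

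CDKN2B lies at chr9:22002903-22009363 on the minus strand of GRCh38 beside CDKN2A and MTAP, a purine salvage enzyme. Among the 17 other tested genes within 5 Mb of it, the median log2 change on DLL4 in NT cells was 0.04, none rose, 1 fell, and none had a change above that of CDKN2B. Of 4 tested genes listed as neighbours at 9p21, MTAP fell on DLL4 in NT cells (-0.41, limma, adjusted p = 0.040) and was higher in NKO than in NT cells on DLL4 (0.47, adjusted p = 0.017). The counting is not stated to use strand. Reads of CDKN2B-AS1, which overlaps CDKN2B in antisense, could therefore be counted in the CDKN2B values. Values of CDKN2B-AS1 are not reported here.

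CDKN2A encodes p16 and, from another reading frame, ARF, and a row by symbol does not separate them. It was at most 0.389 TPM in any library and was not tested. It was listed at 0 in both TKO libraries, 1 NKO library and 1 NT library on DLL4 and in both NT libraries on IgG, while the TKO libraries on IgG had 0.373 and 0.272 TPM.

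CDKN2C encodes p18, an INK4 inhibitor known to be transcribed by E2F, so that it often marks cycling cells. It had 44.6 and 40.5 TPM in TKO cells on DLL4, against 38.2 and 37.7 TPM in TKO cells on IgG. It had 28.6 and 33.4 TPM in NKO cells on DLL4, against 25.4 and 31.2 TPM in NKO cells on IgG. It had 25.3 and 22.0 TPM in NT cells on DLL4, against 25.4 and 25.6 TPM in NT cells on IgG. All 4 TKO libraries were above all 8 others, while NKO and NT cells overlapped on IgG. The coatings overlapped in NKO cells and lay close together without overlap in TKO and NT cells. The coating change was 0.16 in TKO, 0.13 in NKO and -0.11 in NT cells, none of which passed the test (adjusted p = 0.53, 0.82 and 0.62). TKO exceeded NT cells by a log2 change of 0.82 ± 0.12 on DLL4 (limma, adjusted p = 0.00041) and 0.56 ± 0.12 on IgG (adjusted p = 0.0056). NKO exceeded NT cells on DLL4 by 0.37 at an adjusted p of 0.049, which was lost under 16 of 23 settings, with adjusted p up to 0.28.

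CCND1 encodes cyclin D1, the D cyclin that growth factors induce. It had 182 and 169 TPM in TKO cells on DLL4, against 284 and 370.2 TPM in TKO cells on IgG. It had 137 and 138 TPM in NKO cells on DLL4, against 222 and 188 TPM in NKO cells on IgG. It had 98.6 and 84.6 TPM in NT cells on DLL4, against 159 and 173 TPM in NT cells on IgG. DLL4 libraries were below the IgG libraries in every line, and on each coating TKO was the highest line and NT the lowest. CCND1 fell on DLL4 by a log2 change of -0.88 ± 0.13 in TKO (SE, limma, adjusted p = 0.0022) and -0.85 ± 0.13 in NT cells (adjusted p = 0.0014). In NKO cells the change was -0.57 ± 0.13 (adjusted p = 0.087), which passed the threshold when either TKO IgG library was left out (adjusted p = 0.034 each).

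No difference between lines in the CCND1 response was called. The TKO response minus the NT response was -0.03 with a 95% interval of -0.43 to 0.37 (adjusted p = 0.96), and the NKO response minus the NT response was 0.29 with an interval of -0.11 to 0.68 (adjusted p = 0.56). The CCND1 level in TKO cells on DLL4 overlapped that in NT cells on IgG.

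CCND2 encodes cyclin D2 and was near 0 everywhere, at 0.0173 to 0.0601 TPM, and was not tested. CCND3 encodes cyclin D3, which had 116 and 118 TPM in TKO cells on DLL4, against 92.0 and 86.6 TPM in TKO cells on IgG. It had 133 and 143 TPM in NKO cells on DLL4, against 114 and 127 TPM in NKO cells on IgG. It had 189.6 and 177 TPM in NT cells on DLL4, against 110.4 and 126 TPM in NT cells on IgG. CCND3 thus went the opposite way to CCND1: DLL4 libraries were above IgG libraries in each line, and TKO was the lowest line on each coating. CCND3 rose on DLL4 by 0.39 ± 0.09 in TKO (limma, adjusted p = 0.026) and 0.63 ± 0.09 in NT cells (adjusted p = 0.00097), with 0.20 ± 0.09 in NKO cells (adjusted p = 0.53). The TKO call was lost without a filter (adjusted p = 0.064), with median-of-ratios rescaling (0.058), without a variance trend (0.067), when fitted on the TKO libraries alone (0.077), and without TKO IgG 2 (0.058), TKO IgG 3 (0.13), TKO DLL4 2 (0.13) or TKO DLL4 3 (0.16), with log2 changes between 0.35 and 0.43. The responses differed by -0.24 (95% interval -0.52 to 0.04) between TKO and NT and by -0.43 (-0.70 to -0.15, adjusted p = 0.17) between NKO and NT cells.

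Cyclin D1 was the more abundant D cyclin transcript in NT cells on IgG, and cyclin D3 was in NT cells on DLL4. CCND1 made up 59.9% ± 1.5 of the TPM of the 3 D cyclins in TKO cells on DLL4 and 78.3% ± 3.90 on IgG (SD, n = 2 each). It made up 49.9% ± 1.11 in NKO cells on DLL4 and 62.9% ± 4.48 on IgG, and 33.3% ± 1.31 in NT cells on DLL4 and 58.4% ± 0.80 on IgG. The share on DLL4 was below that in the IgG libraries in each of the 3 lines, and NT cells on DLL4 were the one group in which CCND3 exceeded CCND1 in both libraries. The summed TPM of the D cyclins was 292 ± 7.76 in TKO, 275 ± 7.98 in NKO and 275 ± 19 in NT cells on DLL4, and 416 ± 57.2 in TKO, 325 ± 14.4 in NKO and 285 ± 21.6 in NT cells on IgG. Thus the NT total on DLL4 was within the spread of the NT total on IgG although both of its parts changed.

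The inhibitors were then set against the D cyclins. The summed TPM of the 6 inhibitors per TPM of D cyclin was 0.875 ± 0.022 in TKO cells on DLL4 and 0.446 ± 0.049 on IgG, 0.892 ± 0.054 in NKO cells on DLL4 and 0.646 ± 0.085 on IgG, and 1.42 ± 0.03 in NT cells on DLL4 and 0.761 ± 0.045 on IgG. NT cells on DLL4 were the only group in which the summed TPM of the inhibitors exceeded that of the D cyclins. Most of the inhibitor sum was CDKN1A, which made up 87.8% to 92.9% of the CIP/KIP TPM in group means. Within the INK4 members CDKN2B made up 64.9% ± 0.99 in NT cells on DLL4, against 29.9% ± 2.29 in NT cells on IgG, while in TKO cells it made up 27.6% ± 0.21 on DLL4 and 24.4% ± 1.05 on IgG. These sums describe transcripts and carry no test. The D cyclin sums, shares and ratios hold CCND1, which lies on chromosome 11, and that chromosome was higher as a whole in TKO cells (described below). The part of the chromosome in the TKO sums and ratios was not tested. CDKN2D, an INK4 gene outside the members, is not in the inhibitor sums.

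**Figure D2:**
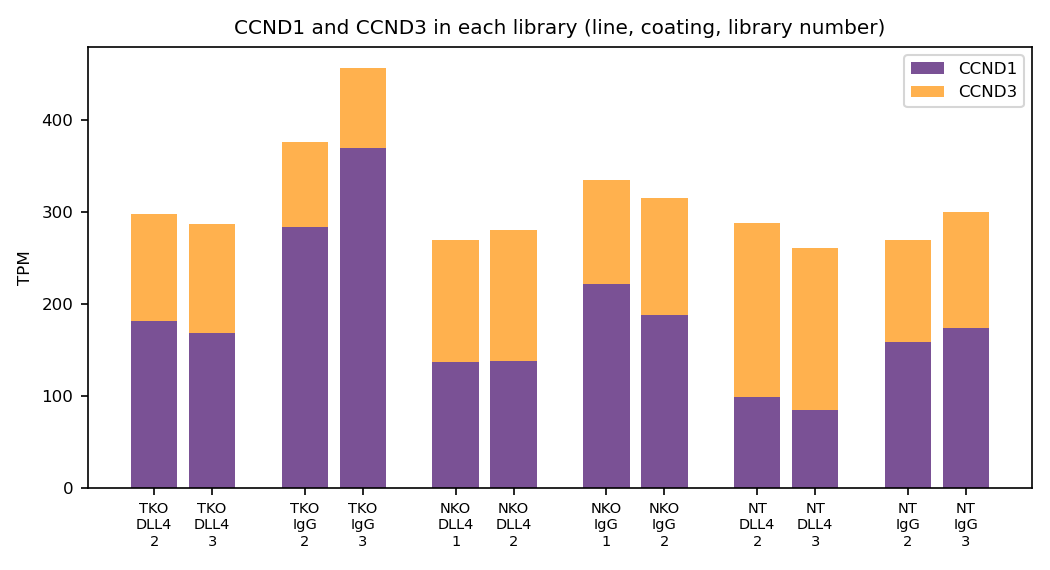
TPM of CCND1 (purple) with that of CCND3 (orange) stacked on it, 1 bar for each of the 12 libraries. CCND1 is the smaller part in both NT libraries on DLL4, with 33.3% of D cyclin TPM on average, and the larger part in the NT libraries on IgG, with 58.4%, and the bars are tallest in the TKO libraries on IgG.

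MYC encodes a transcription factor that drives genes of ribosome production and metabolism. It had 133 and 124 TPM in TKO cells on DLL4, against 126 and 141 TPM in TKO cells on IgG. It had 123 and 109 TPM in NKO cells on DLL4, against 157 and 129 TPM in NKO cells on IgG. It had 90.3 and 84.0 TPM in NT cells on DLL4, against 121 and 146.0 TPM in NT cells on IgG. The coatings overlapped in TKO cells and did not in NKO and NT cells. The log2 change on DLL4 was -0.06 ± 0.12 in TKO (limma, adjusted p = 0.87), -0.30 ± 0.12 in NKO (adjusted p = 0.46) and -0.61 ± 0.12 in NT cells (adjusted p = 0.0065). The NT call was lost without NT IgG 3 (-0.47, adjusted p = 0.067) or NT DLL4 3 (-0.55, adjusted p = 0.054).

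Between TKO and NT cells the MYC responses differed by 0.55 ± 0.17, with a 95% interval of 0.18 to 0.92, which did not pass over all genes (limma, adjusted p = 0.16). On IgG the lines overlapped and the TKO change against NT was 0.00 (adjusted p = 1). MYC lies at chr8:127735434-127741434 on the plus strand. Over the 414 protein-coding genes tested on chromosome 8, the median change of NKO against NT cells was -0.16 on each coating, against 0.06 over all genes, with 28.7% of them lower on DLL4 and 24.4% on IgG. Within 5 Mb of MYC the median over 29 genes was 0.03 on DLL4 and 0.04 on IgG. With the genes of chromosome 8 centred on their median deviation in each library, a setting added after the data were seen, MYC in NKO against NT cells on DLL4 had a log2 change of 0.57 (adjusted p = 0.0027), against 0.41 as deposited. This centring shifts all genes of the chromosome alike, also those near MYC, which were not lower. The call as deposited was lost under 6 of 23 settings, among them no filter (limma, adjusted p = 0.1) and no variance trend (0.07).

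**Figure D3:**
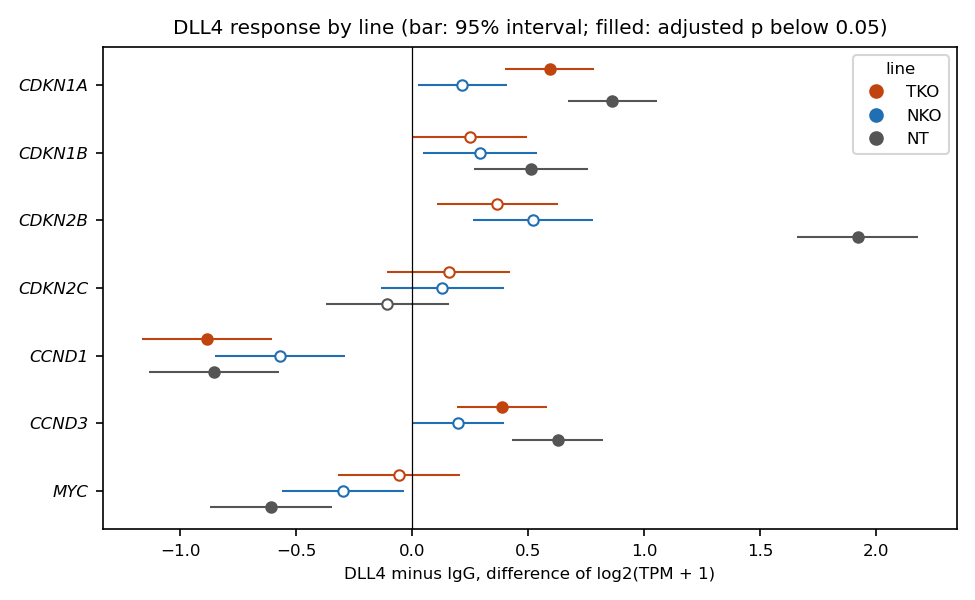
Log2 change on DLL4 against IgG of the 7 tested members in TKO, NKO and NT cells, with 95% intervals of the fit. CDKN2B reaches 1.92 in NT cells, against 0.37 in TKO and 0.52 in NKO cells, while CCND1 is below 0 in all 3 lines.

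TKO and NKO cells were each set against NT cells. On DLL4 TKO cells had 6 of 7 tested members changed, where 26.6% of all genes were, with CDKN2C, CCND1 and MYC higher and CDKN1A, CDKN2B and CCND3 lower. On DLL4 NKO cells had 6 of 7 tested members changed, where 20.7% of all genes were, with CDKN2C, CCND1 and MYC higher and CDKN1A, CDKN2B and CCND3 lower. Both comparisons use the same NT libraries. The log2 change against NT cells on DLL4 was -0.75 in TKO and -0.72 in NKO cells for CDKN1A, and -1.39 in TKO and -1.53 in NKO cells for CDKN2B. It was 0.82 in TKO and 0.37 in NKO cells for CDKN2C, and 0.93 in TKO and 0.58 in NKO cells for CCND1. It was -0.64 in TKO and -0.41 in NKO cells for CCND3, and 0.55 in TKO and 0.41 in NKO cells for MYC. The TKO count was 6 without any one library, and the NKO count fell to 3 without NT DLL4 2, NT DLL4 3 or NKO DLL4 1.

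The single calls that NKO lost in those fits were CDKN2C in each of them, MYC in each of them (adjusted p = 0.079, 0.18 and 0.2), CCND1 without NT DLL4 3 (adjusted p = 0.081) and CCND3 without NT DLL4 2 (0.066) or NKO DLL4 1 (0.071). CDKN1A and CDKN2B passed in NKO against NT cells on DLL4 whichever library was left out (limma, adjusted p = 0.00023 and 1e-05 with all of them).

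On IgG TKO cells had 4 of 7 tested members changed against NT cells, where 27.6% of all genes were: CDKN2C and CCND1 were higher and CDKN1A and CCND3 lower. CCND3 in this comparison was at -0.40 (limma, adjusted p = 0.0064) and missed the threshold without NT IgG 3 (-0.30, adjusted p = 0.062). On IgG limma called 0 of 7 members between NKO and NT cells, where 10.7% of all genes were called, and 1 member, CCND1, had an unadjusted p below 0.05 (log2 change 0.30, adjusted p = 0.17).

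TKO and NKO cells were also compared with each other, which uses no NT library for the means. On DLL4 only CDKN2C was called, 1 of 7 where 22.9% of all genes were, at a log2 change of 0.45 (limma, adjusted p = 0.021), and this was lost without TKO DLL4 2 (0.38, adjusted p = 0.15), TKO DLL4 3 (0.52, 0.055) or NKO DLL4 1 (0.34, 0.17). Without TKO IgG 2 or 3, CCND1 passed as well (0.35, adjusted p = 0.032 each), whereas with chromosome 11 genes centred as described below it was at -0.15 (adjusted p = 0.39). On IgG 4 of 7 were called, where 19.6% of all genes were: CDKN2C (0.42) and CCND1 (0.66) were higher in TKO and CDKN1A (-0.40) and CCND3 (-0.42) lower. There CDKN1A was lost without NKO IgG 2 (-0.30, adjusted p = 0.06), and CDKN2C without TKO IgG 2 (0.41, 0.1), TKO IgG 3 (0.43, 0.098) or NKO IgG 1 (0.28, 0.19). CDKN2B differed by 0.14 on DLL4, with a 95% interval of -0.12 to 0.40.

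CCND1 lies at chr11:69641087-69654474 on the plus strand of GRCh38, and chromosome 11 as a whole was higher in TKO cells. Over its 697 tested protein-coding genes the median log2 change of TKO against NT cells was 0.56 on DLL4, against 0.03 over all genes, and 0.52 on IgG, against 0.04 over all genes. On DLL4 68.3% of these genes were higher and on IgG 68.9%. CCND1, at 0.93 on DLL4 and 0.96 on IgG, was above the chromosome median by 0.38 on DLL4 and 0.44 on IgG. With chromosome 11 genes centred on their median deviation in each library, a setting added after the data were seen, CCND1 remained higher in TKO than in NT cells, by 0.35 on DLL4 (limma, adjusted p = 0.036) and 0.43 on IgG (adjusted p = 0.014). In TKO against NKO cells on IgG it was 0.19 with that setting (adjusted p = 0.26) and 0.66 without it.

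Genes around CCND1 moved with it. Within 5 Mb, 145 tested genes had a median change in TKO against NT cells of 0.61 on DLL4 and 0.51 on IgG, and 107 on DLL4 and 100 on IgG were called higher. Of these 145 genes, 29 on DLL4 and 16 on IgG had a larger change than CCND1. Of 9 tested neighbours listed at 11q13, 7 were higher on each coating, among them FADD (0.84 on DLL4 and 0.74 on IgG), an adaptor of death receptors, CTTN (0.73 on DLL4 and 0.54 on IgG), which binds actin, and PPFIA1 (0.96 on DLL4 and 0.99 on IgG), a liprin scaffold protein. The part of the chromosome in the CCND1 difference was not tested beyond these values. The fall on DLL4 within each line is a comparison inside that line: the chromosome 11 median for it was 0.04 in TKO and -0.02 in NT cells.

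**Figure D4:**
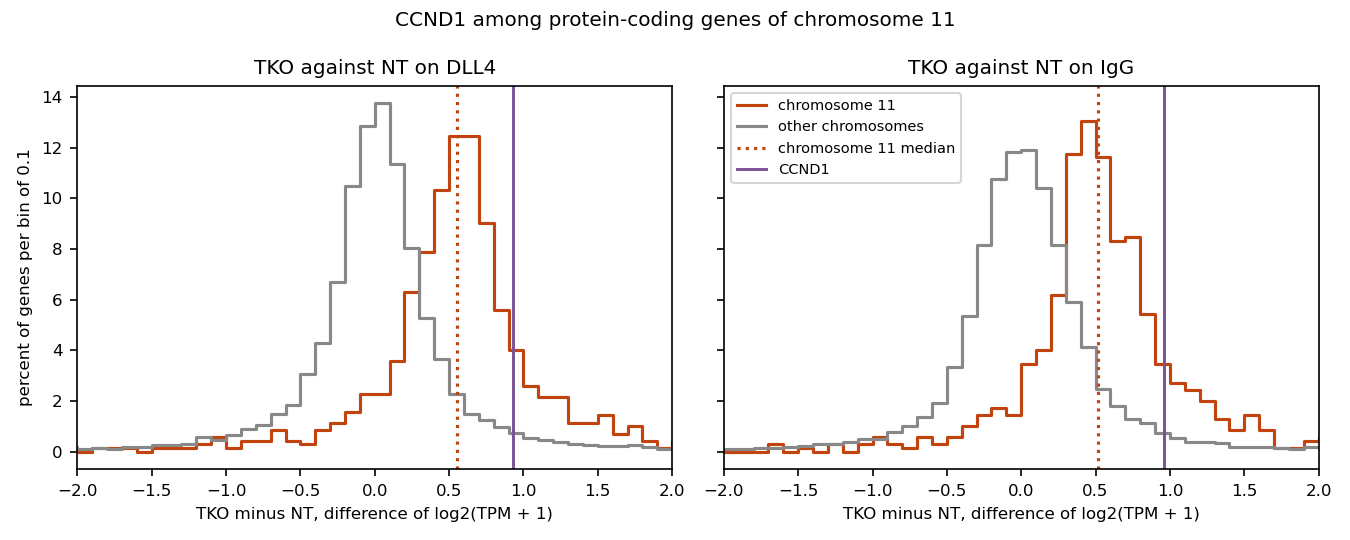
Distribution of the log2 change of TKO against NT cells over protein-coding genes of chromosome 11 (697 genes) and of the other chromosomes, on DLL4 and on IgG, shown between -2 and 2, with CCND1 marked. The chromosome 11 median is 0.56 on DLL4 and 0.52 on IgG, and CCND1 lies to the right of it at 0.93 and 0.96.

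The members act through larger groups of genes, which are read against the share of all genes that changed. On DLL4 4.11% of all genes rose and 2.41% fell in TKO cells, 0.511% rose and 0.271% fell in NKO cells, and 7.68% rose and 8.34% fell in NT cells. Against NT cells on DLL4, 16.1% of all genes were higher and 10.5% lower in TKO cells, and 11.4% were higher and 9.31% lower in NKO cells. Downstream of the members, a list of 30 genes of DNA replication, most of them E2F targets, was examined. On DLL4 in NT cells 21 of the 30 fell and none rose, with a median change of -0.59 against 0.01 over all genes. The 4 with the smallest p were MCM2 (-1.03) and MCM7 (-0.77), subunits of the replicative helicase, FEN1 (-0.74), a nuclease of lagging-strand synthesis, and POLD1 (-0.75), a DNA polymerase subunit. In TKO cells MCM2 (-0.41) was the single call (limma, adjusted p = 0.036), with a list median of -0.21. In NKO cells limma called 0 of 30, with 4 lower at an unadjusted p below 0.05 and a median of -0.17. The difference of responses was called for MCM2, MCM7 and FEN1 in NKO against NT cells (limma, adjusted p = 0.041, 0.044 and 0.047) and for 0 of 30 in TKO against NT cells, where 17 had an unadjusted p below 0.05, all higher.

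Between lines on DLL4 these replication genes were higher in the targeted lines. In TKO against NT cells 19 of 30 were higher and none lower (median 0.40), led by TYMS (1.34), which makes thymidylate. In NKO against NT cells 28 of 30 were higher and none lower (median 0.78), including TYMS (1.13), MCM2 (1.27), PCNA (0.74), the replication clamp, and CDC6 (1.07), which licenses origins. On IgG 7 of 30 were higher and 3 lower in TKO against NT cells (median -0.03), where 15.2% of all genes were higher and 12.4% lower. On IgG 12 of 30 were higher and none lower in NKO against NT cells (median 0.37), where 4.92% of all genes were higher and 5.74% lower. Among 30 mitotic genes 9 fell on DLL4 in NT cells, led by CDC20 (-0.66), an activator of the anaphase-promoting complex, and AURKB (-0.55), a mitotic kinase. In TKO cells limma called 0 of the 30 on DLL4, with 3 at an unadjusted p below 0.05, and in NKO cells 0 of the 30, with 0 at an unadjusted p below 0.05.

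The direct partners of the members in the RB pathway were mixed. Of 30 tested partners, 2 rose and 11 fell on DLL4 in NT cells, with a median of -0.28. E2F1 fell by 0.79, CDK4 by 0.47 and MYBL2, a late G1 transcription factor, by 0.45 on the log2 scale, while CDKN2D rose (0.66). CDKN2D encodes p19, the INK4 inhibitor that is not among the 10 members. It averaged 23.7 TPM in TKO, 13.8 TPM in NKO and 19.4 TPM in NT cells on DLL4, and 24.8 TPM in TKO, 11.7 TPM in NKO and 11.9 TPM in NT cells on IgG. It was therefore already high in TKO cells without ligand, by 1.00 over NT cells on the log2 scale (limma, adjusted p = 0.00013). In TKO cells on DLL4 E2F7 (-0.82) and E2F1 (-0.38) fell, and in NKO cells limma called 0 of 30 partners, with 1 at an unadjusted p below 0.05.

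Of 24 tested genes of the TGF-beta pathway and SMAD targets, among them the SMAD factors known to induce CDKN2B, 14 rose and none fell on DLL4 in NT cells, with a median of 0.62. THBS1 (2.39), an activator of latent TGF-beta, SNAI2 (1.92), a repressor that is also a known Notch target, CCN2 (1.14), a matrix protein, and COL4A1 (1.05), a basement membrane collagen, had the smallest p. In TKO cells 8 rose and 1 fell (median 0.24), with CCN2 at 1.08 and COL4A1 at 0.86, and in NKO cells only TGFB2 rose (1.38, limma, adjusted p = 0.019), with a median of 0.18. The lines already differed on IgG. There 13 of 24 were higher and 5 lower in TKO than in NT cells, where 15.2% of all genes were higher and 12.4% lower. In NKO against NT cells 8 of 24 were higher and 2 lower, where 4.92% of all genes were higher and 5.74% lower. THBS1 on IgG averaged 460 ± 187 TPM in TKO, 285 ± 60.8 TPM in NKO and 123 ± 5.42 TPM in NT cells (SD, n = 2 each), and CCN2 was higher on IgG in TKO (0.93) and NKO (0.68) than in NT cells. The DLL4 response was lower than in NT cells for SNAI1 (-0.88) and BHLHE40 (-0.93) in TKO cells. In NKO cells it was lower than in NT cells for SNAI2 (-1.52), THBS1 (-1.60) and CCN2 (-0.73). Whether the levels on IgG had a part in these differences was not tested.

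MYC target genes fell on DLL4 in NT cells as MYC itself did. Of 29 tested, 20 fell and none rose (median -0.45). They included ODC1 (-1.04), the first enzyme of polyamine synthesis, LDHA (-0.59), lactate dehydrogenase, and FBL (-0.45) and RRP9 (-0.71), which process ribosomal RNA. In TKO cells ODC1 (-0.58) and RRP12 (-0.46) fell, with a median of -0.10, and in NKO cells limma called 0 of 29, with 3 at an unadjusted p below 0.05 and a median of -0.08. The difference of responses was called for ODC1 in NKO against NT cells (0.80, limma, adjusted p = 0.041) and for 0 of 29 in TKO against NT cells, where 18 had an unadjusted p below 0.05. Against NT cells on DLL4, 5 of 29 were higher and 1 lower in TKO (median 0.10), and 21 were higher and none lower in NKO cells (median 0.47). In TKO against NT cells on IgG, where MYC had a change of 0.00 and 12.4% of all genes were lower, 11 of 29 were lower and 2 higher, and those lower included NPM1 (-0.45), a nucleolar chaperone, and TFRC (-1.02), the transferrin receptor. In NKO against NT cells on IgG limma called 0 of 29, with 4 at an unadjusted p below 0.05. Of 17 partners and antagonists of MYC, 2 rose and 1 fell in NT cells on DLL4, near the 7.68% of all genes that rose and 8.34% that fell. The list median was 0.04, against 0.01 over all genes. MYCL (1.02), a MYC family member, and MXD4 (0.58), an antagonist that pairs with MAX, rose and BIN1 fell (-0.57).

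**Figure D5:**
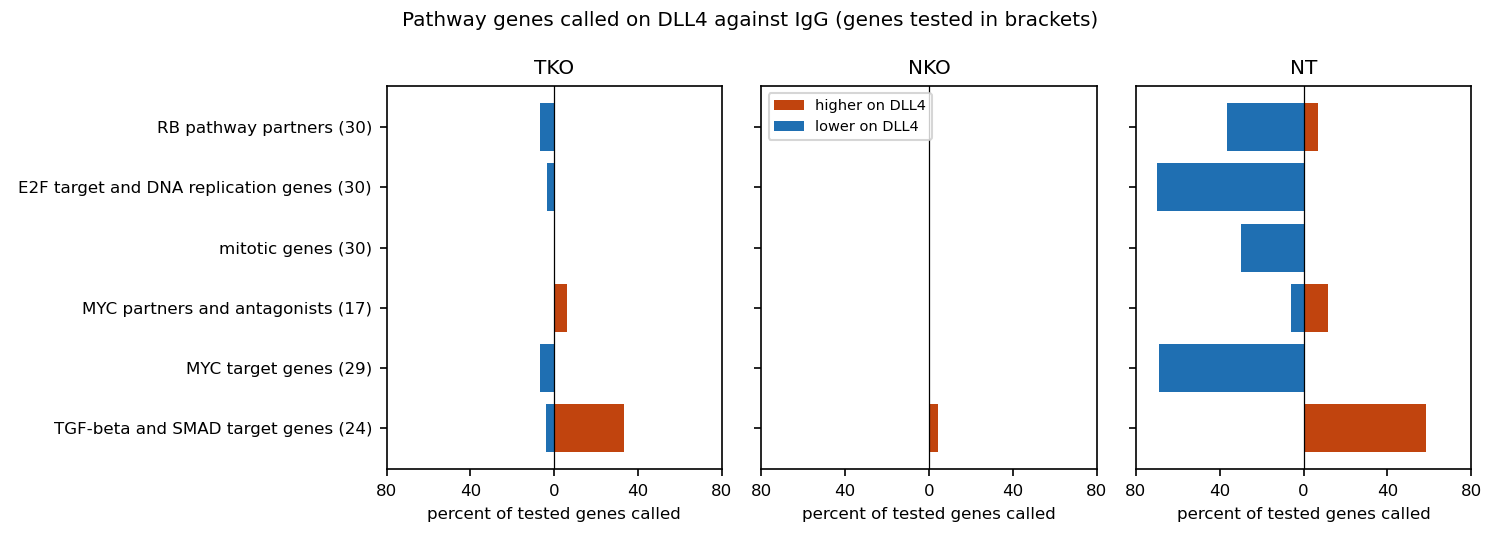
Percent of the tested genes of each list that were called higher (right of 0) or lower (left of 0) on DLL4 against IgG, in TKO, NKO and NT cells; the number of tested genes is in brackets. In NT cells 21 of 30 replication genes and 20 of 29 MYC target genes fell, and 14 of 24 TGF-beta and SMAD genes rose, with fewer calls in TKO and NKO cells.

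Among all tested genes with a mean of at least 5 TPM, those whose log2(TPM + 1) followed each member most closely over the 12 libraries are given as a description. The libraries share lines and coatings, so these correlations carry no test. CDKN2B was followed by LMO2 (Pearson r = 0.975), COL18A1 (0.967) and PINK1 (0.965), CDKN1A by PCDH1 (0.979), EPAS1 (0.977) and HIC1 (0.976), and CDKN1B by ARL6IP5 (0.975), KDR (0.971) and FBN2 (0.957). CDKN2C was followed by PIDD1 (0.968), COMMD9 (0.965) and NFATC1 (0.962), CCND1 by GLTP (0.981), HMGA2 (0.98) and SORD2P (0.977), CCND3 by HIC1 (0.982), NECTIN2 (0.98) and EPHB4 (0.966), and MYC by ZNF696 (0.969), TBC1D10B (0.963) and ACD (0.949). HIC1 stood in the top 3 of both CDKN1A and CCND3. Between members r was 0.963 for CDKN1A with CCND3, -0.933 for CDKN1A with CCND1 and -0.945 for CCND1 with CCND3, while for CDKN2C with CDKN1B it was -0.0905.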

How the data were processed

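The deposited values are TPM (tpm) per gene symbol, which the authors made from polyadenylated RNA of 12 libraries; the submitters' processing notes name kallisto, edgeR and hg38, with versions not given in the sources used here. TPM keep no read numbers, so depth is unknown, and precision is the spread between the 2 libraries of a group. KPNA2P2, a pseudogene, took 0.273% to 5.48% of the nominal TPM total of a library. Table columns number the NT and TKO libraries 2 and 3 and the NKO libraries 1 and 2, where the labels give 1 and 2, so columns were assigned to groups only and are named here by their column numbers. No library pair was identical. Of 35587 symbols, 35389 were matched to GENCODE 29 (GRCh38) and 198 were not.

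Genes with at least 1 TPM in at least 2 libraries (13299) entered 1 limma model (limma 3.58.1, R 4.3.3) on the log2(TPM + 1) scale. The model had a mean for each of the 6 groups, all 12 libraries and a variance trend (6 residual degrees of freedom, 10.8 after moderation). There were 12 two-sided comparisons, with Benjamini-Hochberg adjustment over all genes tested and a threshold of 0.05. Changes understate those of genes at low levels. An exact permutation test of 2 libraries against 2 cannot go below 0.333 and was not used. Intervals are 95% intervals of the fit. The model was tested on simulated data with this design and normal noise. For each comparison 100 genes were given a log2 change of 1 and 100 a log2 change of 2. All had a mean log2(TPM + 1) above 2. Recovery of lower genes, or with another number of changed genes, was not simulated. For DLL4 against IgG in NT cells the model recovered 93% of log2 changes of 1 and 100% of log2 changes of 2. For the TKO minus NT difference of responses it recovered 63% and 98%, so an uncalled difference of responses can be a missed one. Same-numbered libraries did not deviate together in every pair of groups (r from -0.0411 to 0.279), so no pairing was assumed.

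The members and gene lists were chosen with earlier results of these data known. Named are each member, up to 4 genes of a list with the smallest p, the 3 genes most correlated with each tested member, and TSPAN14 and NOTCH1. One of the gene lists is not reported here. Alternatives were other pseudocounts, filters, scalings, fits and single libraries left out. Python 3.11.15 and matplotlib 3.10.9 made the figures.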

Additional observations from a re-analysis of the deposited data

Results flagged for a closer look

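3 differences between DLL4 responses passed the test of the difference itself (limma, interaction contrast, adjusted over all genes tested). CDKN2B responded to DLL4 less in TKO than in NT cells, by a log2 difference of -1.55 (adjusted p = 0.0075), and less in NKO than in NT cells, by -1.40 (adjusted p = 0.0028). In each line both DLL4 libraries were above both IgG libraries for CDKN2B. CDKN1A responded less in NKO than in NT cells, by -0.65 (adjusted p = 0.043), a call that 14 of 23 alternative settings lost, with adjusted p between 0.052 and 0.18. No group holds enough libraries for a test of single outlying values.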

How the results depend on the processing

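No change of a member that passed the test turned its direction under any setting tried. Of 51 changes that did not pass, 17 turned under at least 1 setting (lowest adjusted p there 0.39): MYC in TKO cells on DLL4 was -0.06 and 0.03 without TKO IgG 3, and CDKN1A in NKO against NT cells on IgG was -0.08 and 0.02 without NKO IgG 1. Single members were followed for changes called as reported and, for CDKN2B, for every comparison. Of these outcomes, 410 of 440 under other settings and 438 of 480 with 1 library left out kept their side of the threshold. Changes of other members that were not called as reported are outside these counts, also where a setting called them.

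The number of members called on DLL4 against IgG was 3 in TKO cells and 1 in a fit of only the libraries compared, where CCND1 had an adjusted p of 0.089. That fit also lost CDKN1B in NT cells on DLL4 (0.077) and CCND3 in TKO against NT cells on IgG (0.057). NKO against NT cells on DLL4 gave 6, and 4 without a filter or without a variance trend. TKO against NT cells on DLL4 gave 6, and 7 with quantile normalisation. In NKO cells it was 0, and 1 (CCND1) with a minimum mean of 5 TPM, with median-of-ratios rescaling or with chromosome 11 genes centred. TKO against NKO cells on IgG gave 4, and 0 in a fit of only the libraries compared. On DLL4 the same contrast gave 1, then 0 without a filter, 2 with median-of-ratios rescaling and 2 with quantile normalisation. The NKO minus NT difference of responses gave 2, and 1 without a filter, with median-of-ratios rescaling, without a variance trend or in a fit of only the libraries compared. With 1 library left out the counts ran from 4 to 6 (NT response), 2 to 3 (TKO response), 0 to 1 (NKO response), 3 to 4 (TKO against NT on IgG), 6 to 6 (TKO against NT on DLL4), 0 to 0 (NKO against NT on IgG), 3 to 6 (NKO against NT on DLL4), 3 to 4 (TKO against NKO on IgG), 0 to 2 (TKO against NKO on DLL4), 1 to 1 (TKO minus NT), 1 to 2 (NKO minus NT) and 0 to 0 (TKO minus NKO). A lone library left in a group was assumed to vary like the other groups. Fits of fewer libraries have fewer degrees of freedom, and for the other settings the cause was not tested.

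With the replicate number as a block, MYC in NKO against NT cells on DLL4 was 0.32 (adjusted p = 0.11) and CDKN2C in TKO against NKO cells on IgG was 0.34 (adjusted p = 0.062), and no other call of a member was lost. The deviations of same-numbered libraries correlated at 0.279 in NKO cells and at 0.0902 or less in the other pairs of groups that share numbers. The centring of chromosomes 11 and 8 was added after the data were seen. Depth is unknown, so no detection limit can be given for CDKN1C, CDKN2A and CCND2. Without the filter none of these 3 was called in any comparison (limma, lowest adjusted p = 0.1).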
